A study of Mus musculus with 36 samples.

Results

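The contact landscape of the Gata6 locus in mouse cells is described here at all 1041 positions of the Gata6 contact table that carry a finite score in each of its 4 columns, out of 4130 such positions over the 4 viewpoints of the series (Foxa2, Gata4, Gata6 and T). The table lists 1084 positions, and the 43 left out are 4 with infinite scores beside the viewpoint, 10 without a wild-type score and 29 without a knockout score. The 4 columns are Whsc1+/+ embryonic stem cells at day 0 (ES WT, called wild type in the contact labels), Whsc1+/+ embryoid bodies at day 6 (EB WT), Whsc1-/- embryonic stem cells at day 0 (ES KO) and Whsc1-/- embryoid bodies at day 6 (EB KO). The labels give 2 libraries for each of these groups, 8 in all at Gata6, and each group's libraries stand in 1 pooled column. No replicate value, error or depth can be given, every difference below is between single profiles, and no test was made. The stem cells were grown in medium with inhibitors and leukaemia inhibitory factor or in serum medium, and embryoid bodies, aggregates in which stem cells differentiate, were started in hanging drops in serum medium. Neither the line or clone of each genotype nor the cell types inside the embryoid bodies are named in the labels, and contact scores hold no expression that could check genotype or cell type.

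Gata6 encodes a zinc-finger transcription factor that binds GATA motifs and is needed for primitive endoderm, and later for heart and gut development. It is kept low in pluripotent stem cells and is switched on as endoderm forms. A promoter can be contacted by enhancers far along the chromosome when the chromatin between them folds, and such contacts are largely kept within domains whose borders often carry the protein CTCF. Whsc1, also called Nsd2, methylates lysine 36 of histone H3. UMI-4C measures contacts of 1 chosen fragment, the viewpoint, by joining DNA ends that lie near each other in the nucleus and counting the joined molecules by molecular identifiers.

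The viewpoint lies at position 11053621 of chromosome 18 (mm10), 1111 bp inside the lower-coordinate end of the Gata6 span (11052510 to 11085636, RefSeq). Sides are called lower and higher by coordinate, since the gene table gives no strand. Usable positions begin 3.23 kb away on the lower side (533 positions, out to 222.1 kb) and 3.05 kb away on the higher side (508 positions, out to 201.0 kb), with a median spacing of 338 bp. The lower side holds 5 annotated spans besides Gata6. Gata6os, a long non-coding RNA also called LncGata6, runs from 11.6 to 1.1 kb away and overlaps the end of Gata6. The long non-coding RNA 9130001E16Rik runs from 49.9 to 44.9 kb, and the long non-coding RNA Gm35814 from 165.2 to 55.8 kb with the pseudogene Gm7575 inside it at 125.0 to 121.8 kb. The pseudogene Gm18764 lies at 193.9 to 193.2 kb. The next span outward is that of Mib1, which encodes an E3 ubiquitin ligase of the Notch pathway and ends 235.0 kb away, beyond the last position. On the higher side Gata6 ends at 32.0 kb, and no other span lies in the covered region. The next one, the long non-coding RNA Gm35918, begins 346.0 kb away.

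Scores were averaged in windows of 2 kb counted outward from the viewpoint, which gave 205 windows, 107 lower and 98 higher, each with 2 to 13 positions. Scores are in the authors' unit, and neither a log base nor a scaling is stated for it. They are already smooth along the chromosome, with a median range of 0.047 inside a window, so neighbouring windows repeat much of the same measurement. A constant added to a column shifts its level but leaves its peaks, valleys, edges and the contrast between its sides in place.

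**Figure D1:**
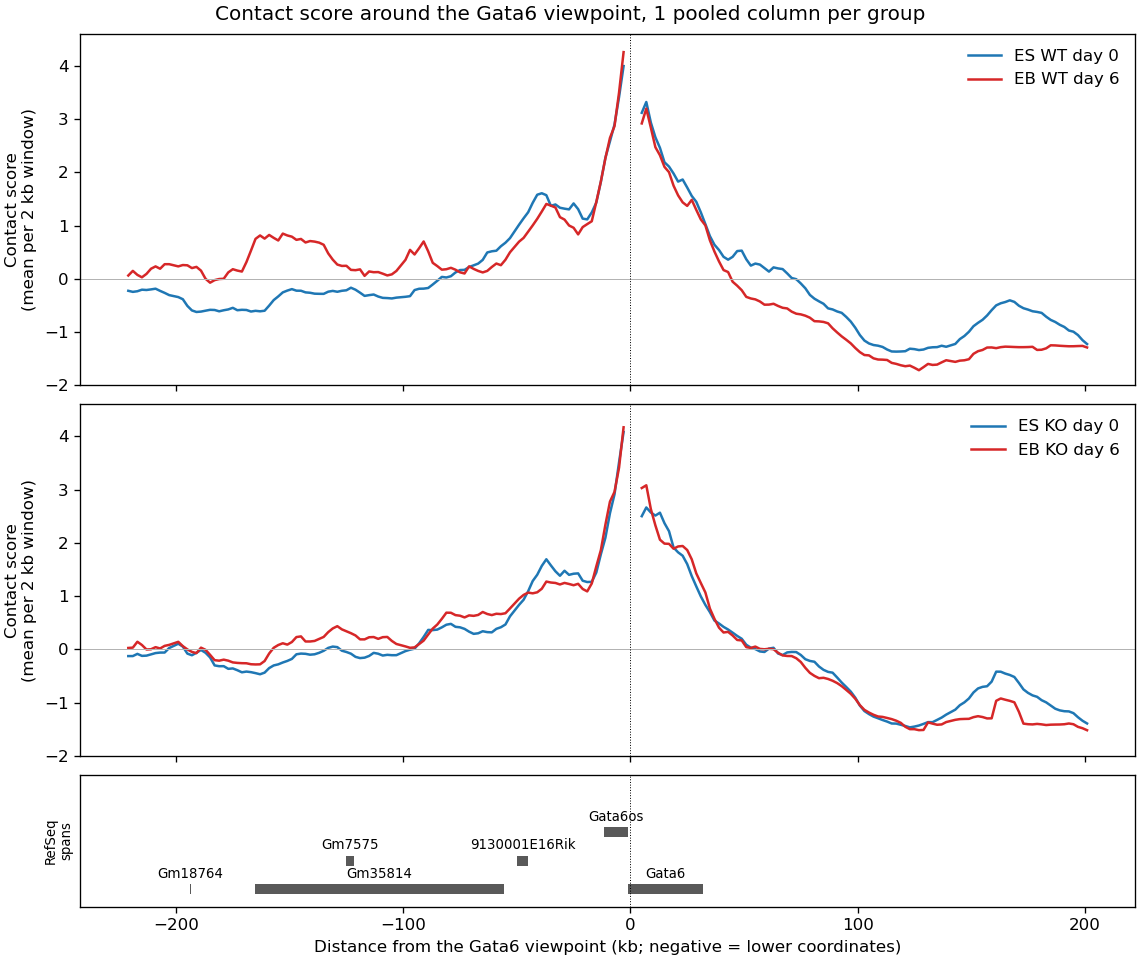
Mean contact score (y axis, authors' unit) per 2 kb window against distance from the Gata6 viewpoint in kb, for ES and EB in WT (top) and KO (middle), with RefSeq spans as bars (bottom). The EB WT line stands above ES WT from 128 to 206 kb on the lower side and below it in every window of the higher side. The peak near 160 to 170 kb on the higher side is seen in every column except EB WT.

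Contact was densest over Gata6os and the body of Gata6, and the body of the gene formed a ramp that ended near its far end. Over Gata6os the mean score was 2.99 in ES WT, 3.05 in EB WT, 2.99 in ES KO and 3.08 in EB KO (21 positions). The 4 columns thus lay within a narrow band at this transcript. Over Gata6 itself the mean was 2.18 in ES WT, 1.99 in EB WT, 2.00 in ES KO and 2.10 in EB KO (65 positions, all on the higher side). Each column had a peak inside the gene, at 6.6 kb in ES WT (score 3.50) and ES KO (2.72) and at 6.0 kb in EB WT (3.40) and EB KO (3.27). ES KO was the lowest of the columns there. EB WT also dipped to 1.35 at 25.4 kb and had a weak peak of 1.58 at 27.5 kb (prominence 0.22), still inside the gene.

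The far end of Gata6 coincided with the greatest step of the higher side beyond 20 kb. An edge was taken as a local extreme of the mean over the next 5 kb outward minus the mean over the 5 kb inward, of at least 0.4 and at least 20 kb from the viewpoint. ES WT had its edge at 33.1 kb, 1.1 kb past the end of Gata6, with a step of -0.54 from 1.27 to 0.74. EB WT had it at 33.2 kb with -0.55 and EB KO at 33.2 kb with -0.60, from 1.26 to 0.66. In ES KO the greatest step, -0.53, lay earlier, at 28.6 kb and still inside the gene. Scores last exceeded 1 at 33.1 kb in ES WT and EB WT, 33.2 kb in EB KO and 30.9 kb in ES KO. The end of the gene and the drop lay within a few kb of each other in all 4 profiles. Distance decay is steep in this range, and its part in the step was not tested.

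On the lower side scores dropped faster and then recovered to a shoulder between Gata6os and 9130001E16Rik. A peak or valley was called where its prominence, the height of a peak above the higher of the bases that flank it (for a valley, the same upside down), was at least 0.2. In ES WT the score dropped to a valley of 1.10 at 21.3 kb and reached a peak of 1.67 at 38.5 kb, a recovery of 0.57. EB WT went from 0.79 at 22.4 kb to 1.45 at 36.4 kb, a recovery of 0.65. ES KO went from 1.22 at 17.7 kb to 1.75 at 36.8 kb, a recovery of 0.53. EB KO had the flattest shoulder, from 1.08 at 18.4 kb to 1.31 at 36.5 kb, a recovery of 0.23. All 4 peaks lay in unannotated sequence 6.4 to 8.6 kb on the viewpoint's side of 9130001E16Rik. Over 9130001E16Rik itself the mean score was 1.08 in ES WT, 0.75 in EB WT, 0.89 in ES KO and 0.99 in EB KO (10 positions). The shoulder crest sat beside this transcript and not over it.

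Gm35814, the longest span of the lower side with 247 of its 533 positions, was a stretch where the columns diverged in shape. In ES WT scores declined along it from 0.64 at most to a valley of -0.38 at 106.4 kb, recovered to a weak peak of -0.15 at 122.4 kb inside Gm7575 (prominence 0.23), and dropped to -0.62 at the lowest near the outer end. EB WT had a valley of 0.013 at 72.9 kb, a twin peak of 0.74 at 90.8 kb and 0.64 at 96.7 kb, a second valley of 0.030 at 116.4 kb, and a broad plateau with crests of 0.87 at 152.4 kb and 0.87 at 159.4 kb. Shallow dips to 0.37 at 94.1 kb and 0.65 at 155.8 kb parted the twin crests, and the crests at 96.7 and 159.4 kb were weak, with prominences of 0.27 and 0.21. Near the 90.8 kb crest the other columns had -0.20 in ES WT, 0.23 in ES KO and 0.15 in EB KO. Near the 152.4 kb crest they had -0.24, -0.24 and 0.11 in the same order. EB WT was thus above the other 3 columns at both crests.

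The KO columns had their own relief along Gm35814. ES KO had a weak peak of 0.49 at 79.0 kb and another of 0.062 at 130.6 kb, with valleys of 0.28 at 70.2 kb and -0.21 at 118.3 kb before them. EB KO had a valley of -0.0026 at 98.1 kb and a peak of 0.44 at 129.1 kb with prominence 0.45. The crest of EB KO near 129 kb lay 4.1 kb outward of Gm7575, at a place where EB WT scored 0.25. Where EB WT had its plateau, both KO columns had a valley, of -0.48 at 162.4 kb in ES KO and -0.29 at 163.2 kb in EB KO. ES WT was at -0.62 and EB WT at 0.84 at 162.4 kb.

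The outer end of Gm35814 was also the outer end of the EB WT plateau. The only edge called on the lower side in any column was in EB WT at 166.2 kb, 1.0 kb beyond the end of the transcript, where the mean dropped from 0.73 to 0.25. At the same place the step was 0.017 in ES WT, 0.025 in ES KO and 0.00050 in EB KO. Beyond it EB WT dropped to a valley of -0.098 at 184.3 kb and reached a last peak of 0.32 at 204.0 kb, past Gm18764. ES WT had its deepest lower-side valley, -0.65, at 191.7 kb, 1.5 kb from Gm18764, and ES KO a weak peak of 0.11 at 200.5 kb. EB KO had no called peak beyond 129.1 kb on this side.

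**Figure D2:**
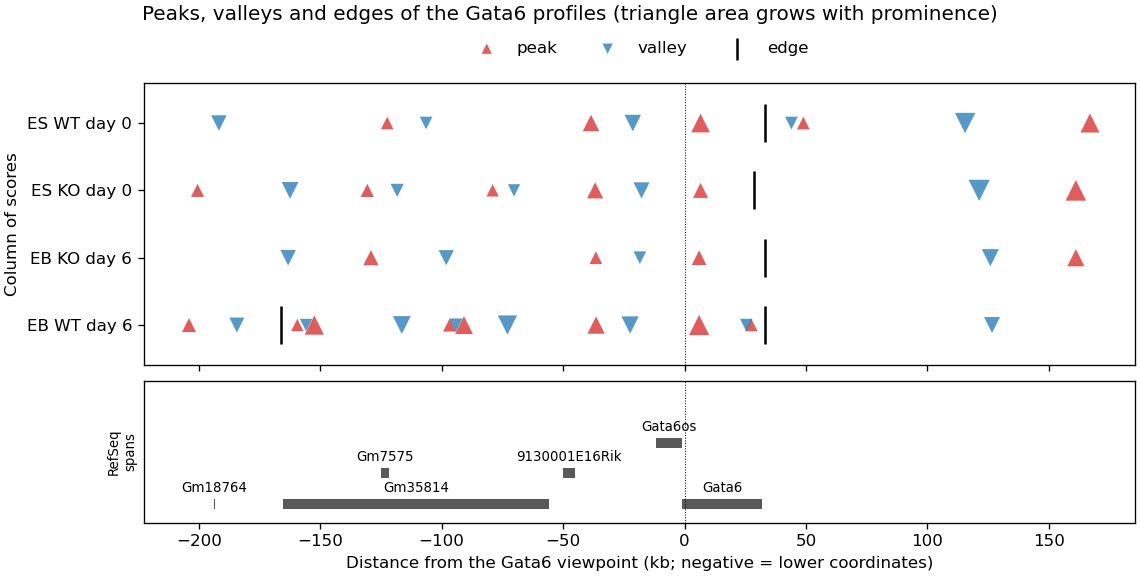
Positions of peaks, valleys (triangles, area growing with prominence) and edges (vertical bars) in each column of scores (rows) against distance from the Gata6 viewpoint in kb, over RefSeq spans. Edges stand near the end of Gata6 in all 4 columns and at the outer end of Gm35814 in EB WT, and the outer peak of the higher side is missing in EB WT.

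The gene-free higher side had a deep trough and, in 3 of the 4 columns, a called distal peak. The trough lay at 115.5 kb in ES WT (-1.39), 126.6 kb in EB WT (-1.75), 121.3 kb in ES KO (-1.48) and 125.9 kb in EB KO (-1.53). Further out, ES WT climbed by 0.99 to a peak of -0.40 at 166.9 kb, and ES KO by 1.10 to a peak of -0.38 at 161.1 kb. EB KO climbed by 0.63 to a peak of -0.89 at the same 161.1 kb. EB WT had no called peak there. Its highest score between 140 and 190 kb was -1.23, at 184.5 kb, a climb of 0.51 from its trough and near that of EB KO. Its scores in that stretch covered a range of 0.34, against 0.88 in ES WT, 0.81 in ES KO and 0.53 in EB KO. The rise was tallest in the stem cell columns, lower in EB KO and absent as a peak in EB WT.

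The form of the distal rise also differed. In ES WT it was a broad hill, with windows of -0.89 at 150 to 152 kb, -0.40 at 166 to 168 kb and -0.64 at 180 to 182 kb. In EB KO it was a narrow step, from -1.30 at 158 to 160 kb to -0.97 at 160 to 162 kb, then from -0.99 at 168 to 170 kb to -1.39 at 172 to 174 kb. ES KO had smaller steps at the same windows, from -0.61 to -0.42 and from -0.52 to -0.75. It was already climbing before them, with -0.81 at 150 to 152 kb. EB WT stayed between -1.41 and -1.25 over the windows from 150 to 188 kb. Closer in, ES WT had a valley of 0.34 at 44.0 kb and a small peak of 0.58 at 48.9 kb, where EB WT had -0.16, ES KO 0.22 and EB KO 0.19. No other column had a called peak between 30 and 150 kb on this side.

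**Figure D3:**
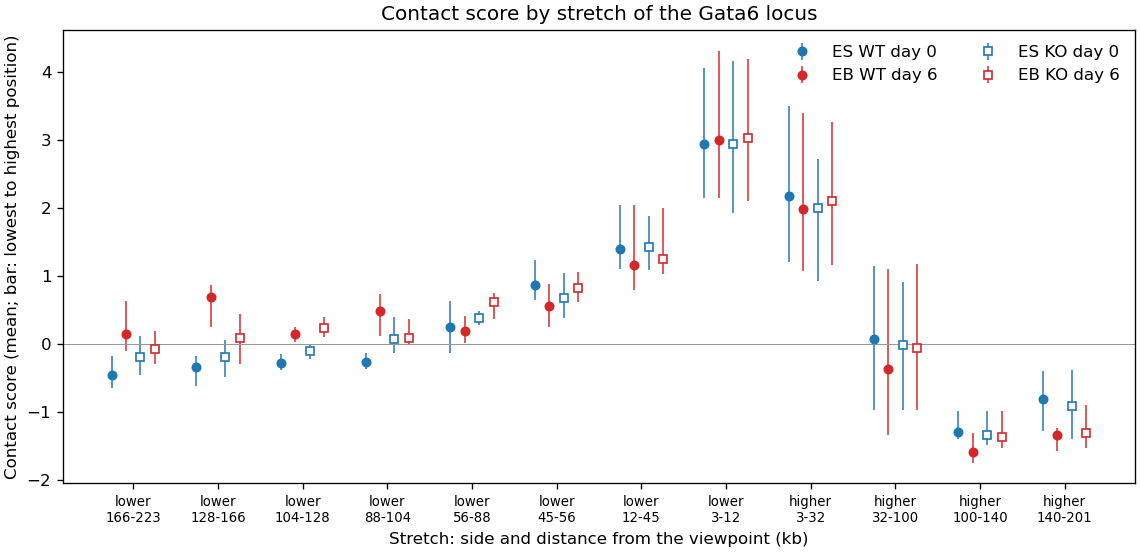
Mean contact score (y axis) over 12 stretches of the locus (x axis, side and distance in kb) in the 4 columns, with bars from the lowest to the highest position of the stretch. The stretch from 128 to 166 kb on the lower side shows EB WT at 0.70 with ES WT at -0.33. Its inner edge was set where these columns begin to differ by at least 0.5. The bars describe unevenness along the chromosome, not replicate error.

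Scores last exceeded 2 within 19.0 kb of the viewpoint in every column, at 12.3, 12.6, 11.2 and 12.3 kb on the lower side and 19.0, 17.4, 18.0 and 17.4 kb on the higher, in the order ES WT, EB WT, ES KO and EB KO. The body of Gata6 thus held high scores further out than the Gata6os side. The last score above 0 came at 71.9, 44.3, 63.9 and 62.6 kb on the higher side in the same order, so EB WT crossed 0 nearest to the gene. On the lower side it came at 83.3 kb in ES WT, 221.1 kb in EB WT and 202.9 kb in ES KO, and EB KO was above 0 at the last position. The first score at or below 0 there came at 83.5, 178.6, 94.8 and 96.5 kb, in the order ES WT, EB WT, ES KO and EB KO. In all but ES WT the score thus returned above 0 further out.

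Contacts favoured different sides at different distances. At matched distances the higher side, that is the Gata6 body, exceeded the lower side from 6 to 30 kb in ES WT and EB WT, where lower minus higher had means of -0.52 and -0.48. The same held from 8 to 26 kb in ES KO and from 12 to 32 kb in EB KO, at means of -0.53 and -0.50. The order turned at the end of these ranges, near the far end of the gene or shortly before it. From 32 kb outward the lower side exceeded the higher in 74 of 81 matched windows in ES WT, 81 in EB WT, 79 in ES KO and 81 in EB KO, with medians of 0.46, 1.49, 0.76 and 1.19. In ES WT the excess reached 1.17 at 40 to 42 kb, beside the shoulder. In EB WT it reached 2.30 at 148 to 150 kb, in ES KO 1.45 at 198 to 200 kb, and in EB KO 1.95 at 128 to 130 kb. At 160 to 174 kb in ES WT the higher side was again above the lower, with lower minus higher at -0.21 at most, and in ES KO this held only from 160 to 164 kb. The embryoid bodies of either genotype showed no such return. Since each value is a contrast within 1 column, no shift of a column's level changes it.

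**Figure D4:**
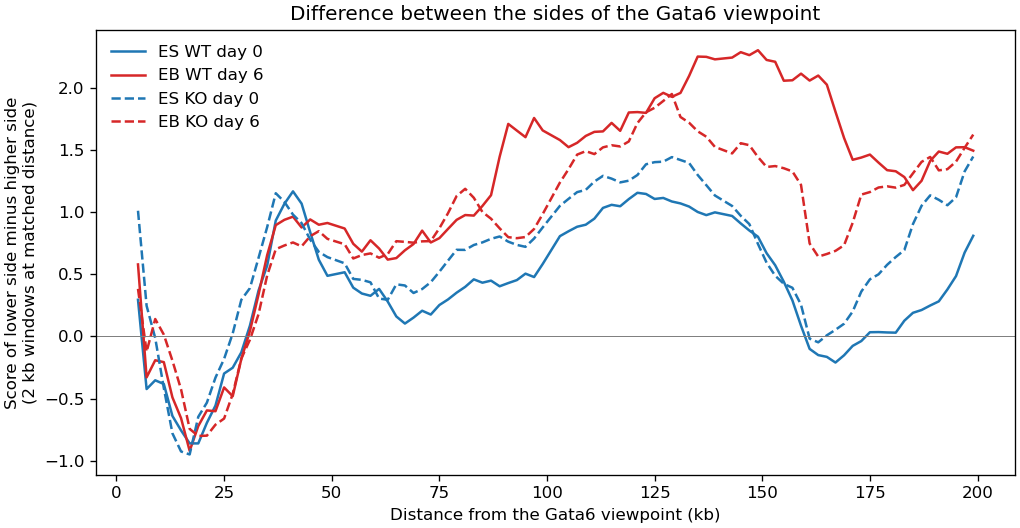
Score of the lower side minus the higher side (y axis) in 2 kb windows at matched distance (x axis, kb) for the 4 columns. All lines dip below 0 within the range of the Gata6 body and stand above 0 beyond it, except ES WT and ES KO just past 160 kb.

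Between stages in WT, EB scores were higher over the distal lower side and lower in every window of the higher side, which were scored out to 201.0 kb. On the lower side 78 of 107 windows were above 0, with a median of 0.42, and on the higher side 98 of 98 were below 0, with a median of -0.38. A difference was counted from 0.5 score units upward. By that size 79 of 205 windows (38.5%) differed, against a background of 16.8% of 819 windows over the 4 viewpoints, which include these 205. All 45 windows that were higher in EB lay on the lower side and all 34 that were lower lay on the higher side, against backgrounds of 8.79% and 8.06%. The median over all 205 windows was -0.18. After subtracting it, 62 windows were higher and 18 lower, 77.5% higher in place of 57.0%, and 85 of 98 windows of the higher side remained below 0.

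These windows formed 4 blocks of at least 3 neighbours, where 1 window without a value did not end a block. The first block, between 128 and 206 kb away on the lower side (10847622 to 10925621 of chromosome 18), had a mean of 0.86, with column means of -0.43 in ES WT, 0.43 in EB WT, -0.18 in ES KO and 0.0039 in EB KO. Its crest was at 162.4 kb, inside Gm35814 and 2.8 kb from its outer end, where EB WT exceeded ES WT by 1.46. This block ran on past that end, and over the whole stretch from 166 to 223 kb, beyond Gm35814, EB minus ES in WT averaged 0.60. The second block lay from 88 to 104 kb (10949622 to 10965621), wholly inside Gm35814, with a mean of 0.72 and a crest of 0.95 at 90.6 kb. Its means were -0.25 in ES WT, 0.47 in EB WT, 0.083 in ES KO and 0.11 in EB KO. Between both blocks, at 104 to 128 kb around Gm7575, the WT difference was 0.42. The inner part of Gm35814, from 56 to 88 kb, had -0.051, so the mean of 0.51 over the transcript averages unequal parts. These parts were cut at the block edges, so a contrast between them in this difference follows from the cut.

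On the higher side the third block ran from 46 to 78 kb (11099621 to 11131620), past the end of Gata6, with means of 0.19 in ES WT and -0.47 in EB WT. Its mean difference was -0.66, or -0.48 once the median is removed. The fourth ran from 148 to 184 kb (11201621 to 11237620), over the distal rise, with -0.62 in ES WT and -1.31 in EB WT, a mean of -0.69, or -0.52 once the median is removed. Its greatest difference was -0.88 at 167.2 kb, close to the ES WT peak. Over the spans nearest the viewpoint, EB minus ES in WT was 0.062 at Gata6os, -0.19 at Gata6 and -0.34 at 9130001E16Rik. Inside Gata6 it reached -0.43 at 22 to 24 kb. All these values are before the median of -0.18 is removed.

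Between stages in KO, fewer windows reached the size. By the same size 13 of 205 windows (6.34%) differed, against a background of 1.83%. Of these, 12 were lower in EB (background 1.47%) and 1 was higher (background 0.366%), all on the higher side. The background of 819 windows holds 15 such windows, 12 of them lower. The 13 at Gata6 are among them, so it is no outside rate. The blocks were 152 to 164 kb (mean -0.57) and 170 to 180 kb (mean -0.57). Both lie within the WT block from 148 to 184 kb and have its sign, and in WT the same stretches had -0.67 and -0.72. The first takes in the near part of the narrow step of EB KO with its peak, and the second begins at its outer end. Close to the viewpoint inside Gata6, EB minus ES in KO was 0.53 at 4 to 6 kb and -0.51 at 12 to 14 kb, where WT had -0.20 and -0.14. On the lower side 87 of 107 windows were above 0, with a median of 0.16 and a maximum of 0.40, and on the higher side 72 of 98 were below 0, with a median of -0.089. The WT blocks at 128 to 206 and 88 to 104 kb had 0.19 and 0.027 in KO, and the block at 46 to 78 kb on the higher side had -0.037. These blocks were chosen for their size in WT, which by itself favours a smaller value in KO. The stretch of 104 to 128 kb around Gm7575 had 0.34 in KO and 0.42 in WT.

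**Figure D5:**
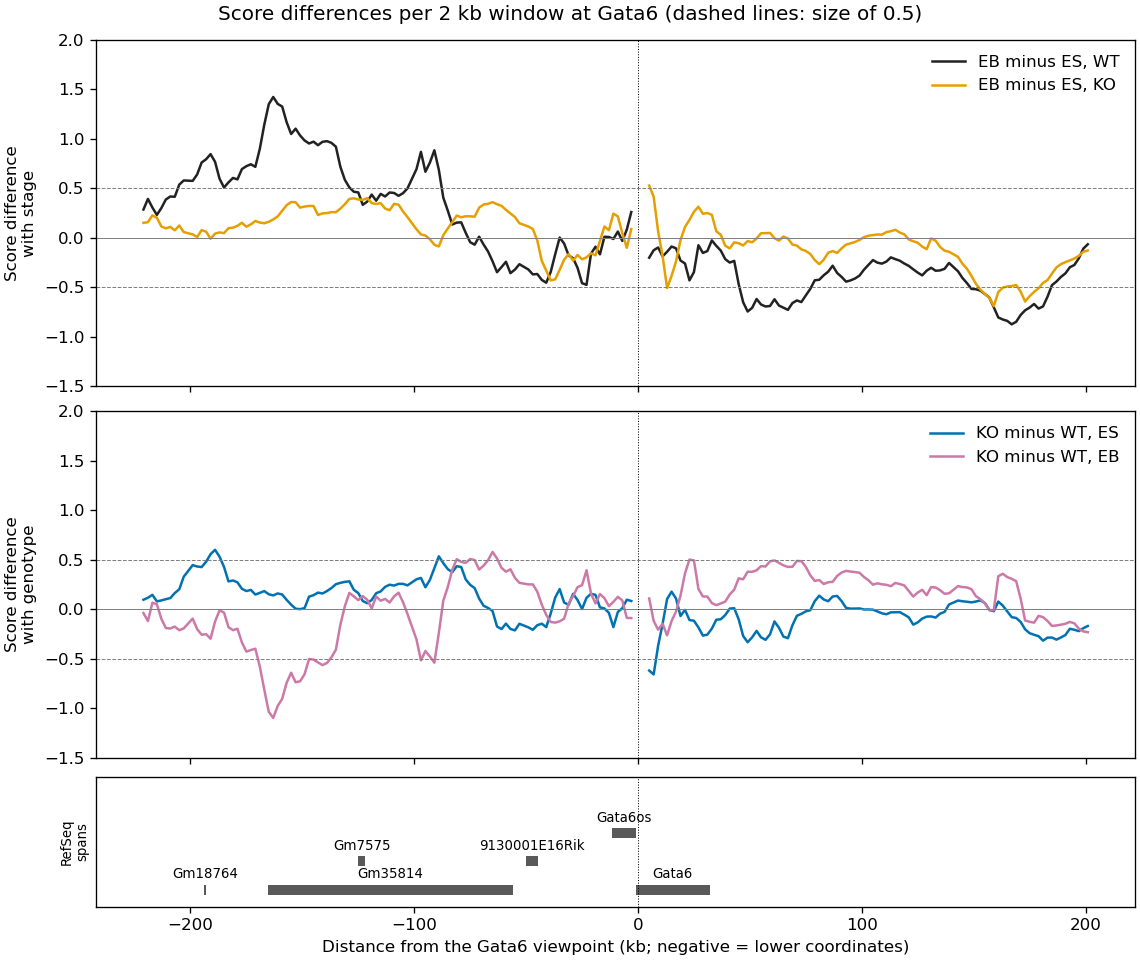
Difference in contact score per 2 kb window (y axis) against distance from the Gata6 viewpoint in kb, for EB minus ES in each genotype (top) and KO minus WT at each stage (middle), with RefSeq spans (bottom). The WT stage difference reaches 1.42 at 162 to 164 kb on the lower side, where KO minus WT in EB reaches its lowest value, -1.10, and both use the same EB WT column.

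Among the pairs of columns that share a stage or a genotype, KO and WT in ES lay closest. Whether WT and KO columns share a scale is not stated, so median absolute differences and window counts are also given with the median over windows removed. Means over stretches are as deposited. The median absolute difference over windows was 0.15 between ES KO and ES WT, against 0.42 between EB WT and ES WT, 0.17 between EB KO and ES KO, and 0.22 between EB KO and EB WT. With the median removed these were 0.13, 0.33, 0.18 and 0.23. In ES 6 of 205 windows (2.93%) reached 0.5, against a background of 3.79%, 4 higher in KO (background 2.69%) and 2 lower (background 1.1%). They were 186 to 192 kb on the lower side (mean 0.56, inward of Gm18764, with -0.61 in ES WT and -0.046 in ES KO), 1 window at 88 to 90 kb (0.54), and 2 windows inside Gata6 at 4 to 8 kb (-0.62 and -0.66). Removing the median of 0.036 left 2 higher and 2 lower.

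In EB 23 of 205 windows (11.2%) differed by 0.5 between KO and WT, below the background of 24.7%, with 5 higher (background 13.1%) and 18 lower (background 11.6%) in KO. The 1 block ran from 138 to 170 kb on the lower side (10883622 to 10915621), spanning the outer end of Gm35814, with a mean of -0.72 and means of 0.72 in EB WT and -0.0010 in EB KO. The 5 windows that were higher in KO lay on the inner part of Gm35814 and in Gata6, with 0.58 at 64 to 66 kb on the lower side as the greatest, and 0 of them reached 0.5 once the median of 0.11 was removed, while 25 were then lower. Over the whole inner part of Gm35814, from 56 to 88 kb, the means were 0.19 in EB WT and 0.62 in EB KO. The stretch at 32 to 100 kb on the higher side had -0.36 in EB WT and -0.057 in EB KO.

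Subtracting the WT stage difference from the KO one gave at least 0.5 in size in 61 windows (29.8%, background 18.4%), 24 higher (background 9.4%) and 37 lower (background 9.04%). This contrast shares the EB WT and ES WT columns with the comparisons above and adds no independent support to them. Its blocks were 186 to 204 kb (-0.65), 134 to 178 kb (-0.78), 88 to 100 kb (-0.76) and 54 to 66 kb (0.59) on the lower side, and 46 to 74 kb (0.65) on the higher side. The last is the stretch just past Gata6 where EB WT was lower than ES WT and the KO columns had 0.014 and -0.0070. Removing the median of 0.12 left 10 higher and 43 lower.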

How the data were processed

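The deposited table holds a contact score made by the authors at each position, 1 column per stage and genotype, per the file headers. Nothing stated says what its unit, smoothing or scaling is. The submitters' processing notes name the build mm10 and the tools BWA, deepTools and STAR without their roles. Depth is unknown, and no interval or floor was computed. Windows of 2 kb took the mean of their finite positions and needed at least 2. Peaks and valleys (prominence 0.2, from 5 kb outward, SciPy 1.17.1), edges and blocks followed the rules stated with them. The named regions are these, every RefSeq span (GRCm38.p6, the same chromosomes as mm10) in the covered region, and the distances at which scores cross a level. The stretches of Gm35814 were cut after the profiles were seen, at the edges of the blocks of the WT stage difference. The window, block, peak and edge calls were tried on simulated profiles with independent noise at each position and a known block and peak. The real scores are smooth along the chromosome, so this checked the rules only and gives no error rate for these data. A count model was planned for columns per library, but the columns are pooled, so no test was run. The members, sizes and regions were chosen with earlier results of these data known. RNA libraries were not analysed here. Alternatives were other window widths, medians, sizes, prominences, distance limits, a filter on low scores, and centring, that is removing the median difference.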

Additional observations from a re-analysis of the deposited data

Results flagged for a closer look

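In 2 stretches WT and KO had stage differences of opposite sign, each of at least 0.2 in size, and with 1 pooled column per group this was not tested. From 54 to 66 kb on the lower side, at the inner end of Gm35814, EB minus ES was -0.30 in WT and 0.29 in KO over 6 windows, so that KO exceeded WT by 0.59. At 24 to 26 kb on the higher side, inside Gata6, it was -0.35 in WT and 0.26 in KO in 1 window, a difference of 0.61. After removing each comparison's median the values were -0.12 and 0.26 in the first stretch and -0.17 and 0.23 in the second.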

How the results depend on the processing

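The share of windows that differed by the set size stayed within 1.5 times its main value in 33 of 45 alternatives. With a size of 0.3 it was 67.8% for EB against ES in WT, 25.9% for EB against ES in KO, 12.7% for KO against WT in ES, 36.1% for KO against WT in EB and 46.3% for the difference of stage differences. With a size of 0.75 these were 15.1%, 0.0%, 0.0%, 2.44% and 5.37% in the same order. Dropping the lower-scoring windows, those under the median of the 4-column mean, gave 1.94% for EB against ES in KO, by construction, since the distal higher side then drops out. Centring gave 1.95% for KO against WT in ES. The number of peaks, 5 in ES WT, 8 in EB WT, 6 in ES KO and 4 in EB KO, was 11, 21, 11 and 13 with a prominence of 0.1. It stayed within 1.5 times its main value in only 7 of 16 alternatives. With a prominence of 0.3 it was 3 in ES WT, 5 in EB WT and 3 in ES KO, and with means of 2 kb windows 5 in EB WT and 2 in EB KO. Of 52 recomputed block means 45 moved by less than the SD over the windows of the block. All that moved further did so on centring, as from -0.66 to -0.48 at 46 to 78 kb on the higher side in WT. Other widths and medians re-averaged the same smooth positions within fixed limits, so little movement could be seen with them. Blocks were chosen for windows of 1 sign past the size, so their sign says nothing of stability. No paired analysis was possible because the 2 libraries of a group share 1 pooled column, and leaving out a replicate was not run for the same reason. The depth behind the scores is unknown, so the smallest difference the libraries could resolve cannot be given.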

Other observations

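At the outer ends of the table only 1 genotype has scores. On the higher side, from 201.9 to 212.5 kb, 29 positions carry WT scores alone, with means of -1.31 in ES and -1.18 in EB. There EB minus ES ran from -0.055 to 0.35 with a mean of 0.12, whereas all 98 windows nearer the viewpoint on that side were below 0. On the lower side, from 222.4 to 225.3 kb, 10 positions carry KO scores alone, with means of -0.15 in ES and 0.0054 in EB.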
